A study of Mus musculus with 48 samples.

Results

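The 9 genes described here, *Ifit1*, *Ifit2*, *Ifit3*, *Isg15*, *Irf7*, *Usp18*, *Rsad2*, *Oas1a* and *Ifi44*, are induced by type I interferon. They were taken as a fixed list of symbols, with every probe whose accession maps to one of them, which gave 12 probes of the 41174 probes on the arrays and 9 of the 18434 named genes. *Rsad2* had 3 probes, *Ifit2* had 2 and each of the other genes had 1. The samples were liver and whole colon from C57/BL6 mice at 12 weeks of age, hybridized to 48 Agilent 2-colour arrays with 24 for each tissue. The dams and their offspring were fed a high-fat diet that was either supplemented with (H) or marginally deficient in (L) selenium and folate. By the paper's account diet H held more of both than the recommended requirement. Each group name joins the diet eaten by the dam up to weaning (first letter) to that eaten by her offspring from then on (second letter), so that HH mice were never deficient, HL mice were deficient after weaning, LH mice were deficient up to weaning and LL mice were deficient throughout. All groups shared the high-fat base, and the offspring were described as male. On every array the mouse RNA carried Cy3 and a common reference carried Cy5. That reference was described in the paper as pooled intestinal and liver RNA and in the deposited design as RNA of a whole pregnant mouse with its foetus. The labels give 2 HH liver arrays the same animal code, and these were averaged, which left 5 HH livers, 6 livers of each other group and 6 colons of each group, 47 samples in all. The labels do not say which liver and colon came from the same animal. The comparison of the tissues therefore treats the 47 samples as independent and uses no pairing.

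Type I interferons are cytokines released when cells sense foreign or misplaced nucleic acid. They bind the receptor made of Ifnar1 and Ifnar2, whose kinases Jak1 and Tyk2 pass the signal on to a transcription factor complex that holds Irf9 and binds a short repeated motif, the interferon-stimulated response element, in front of its target genes. In the gut a low basal level of these targets is kept up by the resident microbes, and in the liver they are known as markers of viral infection and of innate immune activation. Among the 9 genes, Irf7 is a transcription factor that amplifies interferon production, and Isg15 is a ubiquitin-like protein that is conjugated to other proteins. Usp18 removes Isg15 from its targets and dampens signalling at the interferon receptor. Ifit1, Ifit2 and Ifit3 bind RNA or one another and restrain translation of viral RNA, Rsad2 (viperin) makes a chain-terminating nucleotide, and Oas1a makes the oligoadenylate that switches on RNase L. Ifi44 is a less well understood interferon-induced protein.

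Promoter sequence is shown for the members in which the core of that response element was found, since this motif is what these genes are known to share. The letters searched were GAAA, then 2 bases of any kind, then GAAA again, on both strands, within the 250 bases before each RefSeq start in the GRCm38.p6 build. Matches may overlap. A window was given for 8 of the 9 members, *Usp18* being the other, and 5 of these 8 held at least 1 match, against 936 of all 27025 genes with a window (3.46%). The matches are in capitals, and each sequence reads 5′ to 3′ towards the gene. On the minus strand lie *Isg15* at chr4:156200855-156200916, *Oas1a* at chr5:120907526-120907565 and *Rsad2* at chr12:26456543-26456592, and on the plus strand lie *Ifit1* at chr19:34640765-34640833 and *Ifit3* at chr19:34583353-34583436.
Isg15: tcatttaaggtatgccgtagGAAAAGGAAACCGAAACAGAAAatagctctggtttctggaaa
Oas1a: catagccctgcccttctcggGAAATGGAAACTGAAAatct
Rsad2: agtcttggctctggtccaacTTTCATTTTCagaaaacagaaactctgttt
Ifit1: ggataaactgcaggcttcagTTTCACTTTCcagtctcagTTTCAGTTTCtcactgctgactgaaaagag
Ifit3: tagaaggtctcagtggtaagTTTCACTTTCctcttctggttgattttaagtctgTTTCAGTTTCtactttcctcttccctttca
*Isg15* held 3 overlapping matches, which began 78, 72 and 66 bases before the start. *Oas1a* held 2 overlapping matches close to its start, *Ifit1* and *Ifit3* held 2 separate ones, and *Rsad2* held 1. The windows of *Ifi44*, *Ifit2* and *Irf7* held none of these letters. A match is a description of the letters and was not tested as a binding site.

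All 12 probes were well above background in the reference channel on all 48 arrays, and none was saturated or flagged. In the mouse channel 10 of the 12 probes were well above background on every array. The exceptions were the weaker *Ifit2* probe, which passed on 20 of 24 liver arrays, and 1 weaker *Rsad2* probe, which passed on 23. Values below are log2 ratios of mouse over reference after normalization, so that 0 means a level equal to the reference. For a gene with several probes the brightest probe stands for the gene. The arrays had 55.1 to 73.7% of spots well above background. All 4 measured hepatocyte markers, *Alb*, *Ttr*, *Apoa1* and *Serpina1c*, were called higher in liver, and all 4 goblet cell and all 4 smooth muscle markers were called higher in colon, as were 4 of 5 colonocyte markers, *Aqp8* being the exception. *Xist*, a transcript made by female cells to silence an X chromosome, had a Cy3 signal over 8.5 on the log2 scale in 2 livers (HL 2 and LL 6) and in 6 colons (HH 1, HH 5, HL 5, LL 1, LL 3 and LL 5), although the offspring were described as male. In the liver of HL 2 and the colons of HL 5, LL 1 and LL 3 the Y-linked *Eif2s3y* was between 6.29 and 7.37, and in the other 4 it was between 10.09 and 11.17, near the 9.78 to 11.55 of the samples under that *Xist* level. Values without these 8 mice are therefore set beside the spread, the correlations, the order of the groups and the difference between the tissues.

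**Figure D1:**
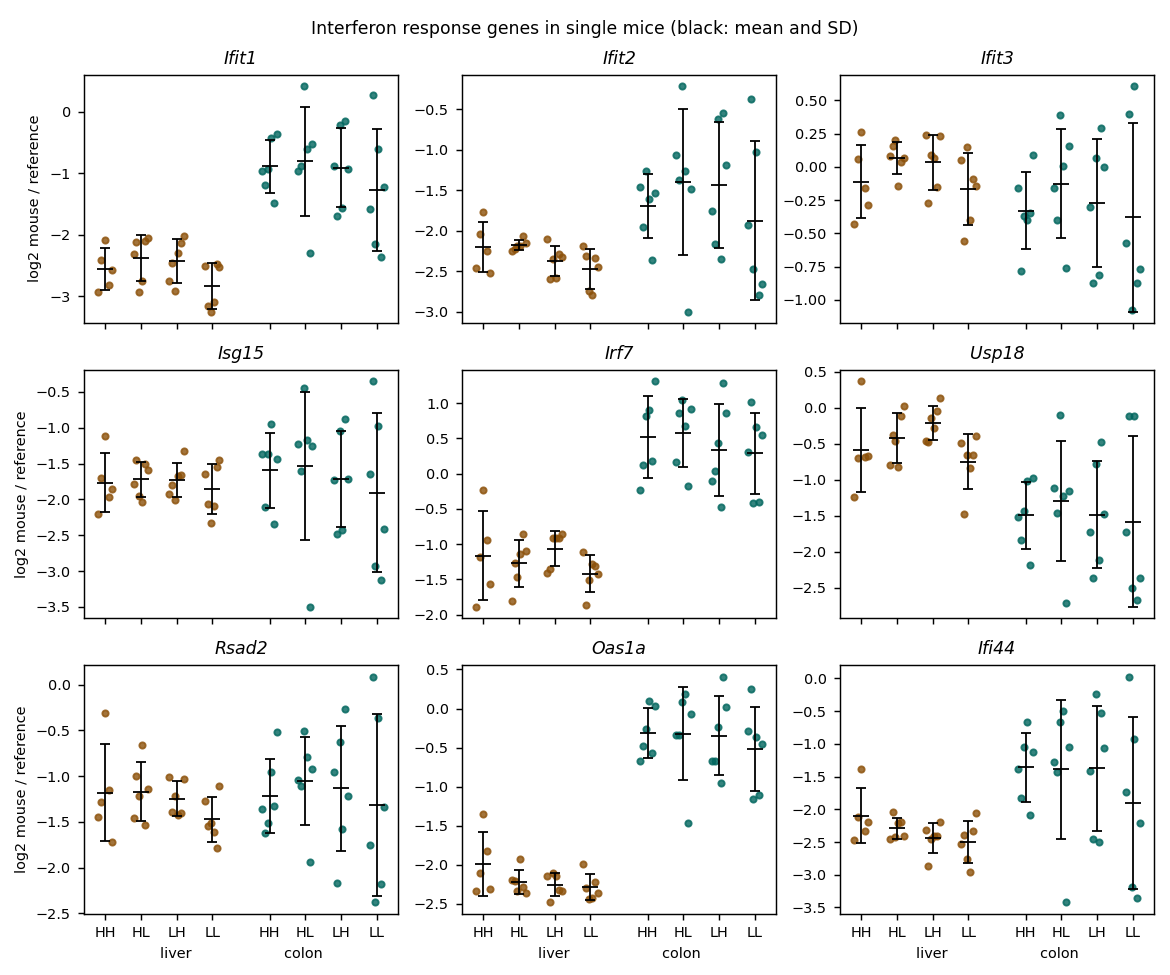
Log2 ratio of mouse over reference (y axis) for each of the 9 genes in single mice, by group (x axis), with liver in brown and colon in green. Black marks give the mean and SD of the group. The colon values of most genes spread over a wider range than the liver values, and the 4 diet groups of a tissue overlap for every gene.

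The clearest feature of these genes was the spread between mice of the same group in the colon. The mean of the 9 genes ran from -2.14 to 0.14 over the 24 colons, a 4.86-fold range, and from -1.96 to -0.84 over the 23 livers, a 2.17-fold range. *Ifi44* had the widest colon range. Its colon values were -1.39, -1.83, -1.04, -0.66, -2.08 and -1.12 in HH, -1.28, -1.43, -0.67, -0.49, -3.42 and -1.05 in HL, -1.42, -2.46, -0.23, -2.5, -0.53 and -1.07 in LH, and -1.74, 0.03, -3.19, -0.93, -3.36 and -2.21 in LL, for mice 1 to 6 of each group. The LL group alone spanned nearly the whole range, which was 10.9-fold over all colons against 2.97-fold over all livers. The 3 lowest colons, HL 5, LL 5 and LL 3, were over the *Xist* level, and without such mice *Ifi44* ran from -2.5 to 0.03 in the colon, a 5.78-fold range, against 2.97-fold in the liver. *Isg15* behaved likewise, with a colon range from -3.5 in HL 5 to -0.35 in LL 2, or 8.88-fold, against 2.33-fold in liver, and its colon range was 4.38-fold without the mice over the *Xist* level. *Ifit2* ranged 6.92-fold in colon and 2.04-fold in liver, *Ifit1* 6.87-fold and 2.35-fold, *Usp18* 6.11-fold and 3.58-fold, and *Rsad2* 5.54-fold and 2.79-fold. The narrowest colon ranges were those of *Oas1a* (3.66-fold), *Irf7* (3.46-fold) and *Ifit3* (3.23-fold). Without the mice over the *Xist* level the colon range was between 2.57-fold (*Oas1a*) and 5.78-fold (*Ifi44*), and that of the mean of the 9 genes was 3.46-fold against 2.17-fold in the liver.

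Expressed as the SD within groups, the colon exceeded the liver for all 12 probes, by 1.43 to 3.7 times with a median of 2.13, whereas the median ratio over all probes was 0.94. The ratio was over 2 for 8 of the 12 member probes and for 2.84% of all probes. It was largest for the brighter *Ifit2* probe (SD 0.8 in colon and 0.21 in liver) and *Ifi44* (1 and 0.29). Among the probes that stand for a gene it was smallest for *Irf7* (0.58 and 0.39). The weaker *Ifit2* probe had an SD of 0.33 in colon and 0.21 in liver, a ratio of 1.56. The other *Rsad2* probes had ratios of 1.63 and 1.43, against 2.05 for the brightest. The *Ifit2* and *Ifi44* probes were also the dimmest in the liver of those that stand for a gene. Their median signal was 3.35 and 3.78 times background there, against 10.5 and 12.5 times in the colon. The part of signal level in these ratios was not tested. In the colon the SD of *Ifi44*, *Isg15* and *Usp18* lay at the 99.9th percentile of all probes. No p is given for these ratios, since the 12 probes move together and are not independent. With the 8 mice over the *Xist* level left out, the colon SD remained above the liver SD for all 9 genes, by 1.22 times for *Irf7* to 3.13 times for *Ifit2*. A wider colon spread was not particular to these genes. The SD within groups of a list mean was 0.62 in colon and 0.13 in liver for B cell markers. It was 0.29 and 0.11 for other type I interferon targets, and 0.2 and 0.05 for interferon signalling genes. It was larger in liver for interferon ligands and receptors and for hepatocyte, smooth muscle and neutrophil markers.

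**Figure D2:**
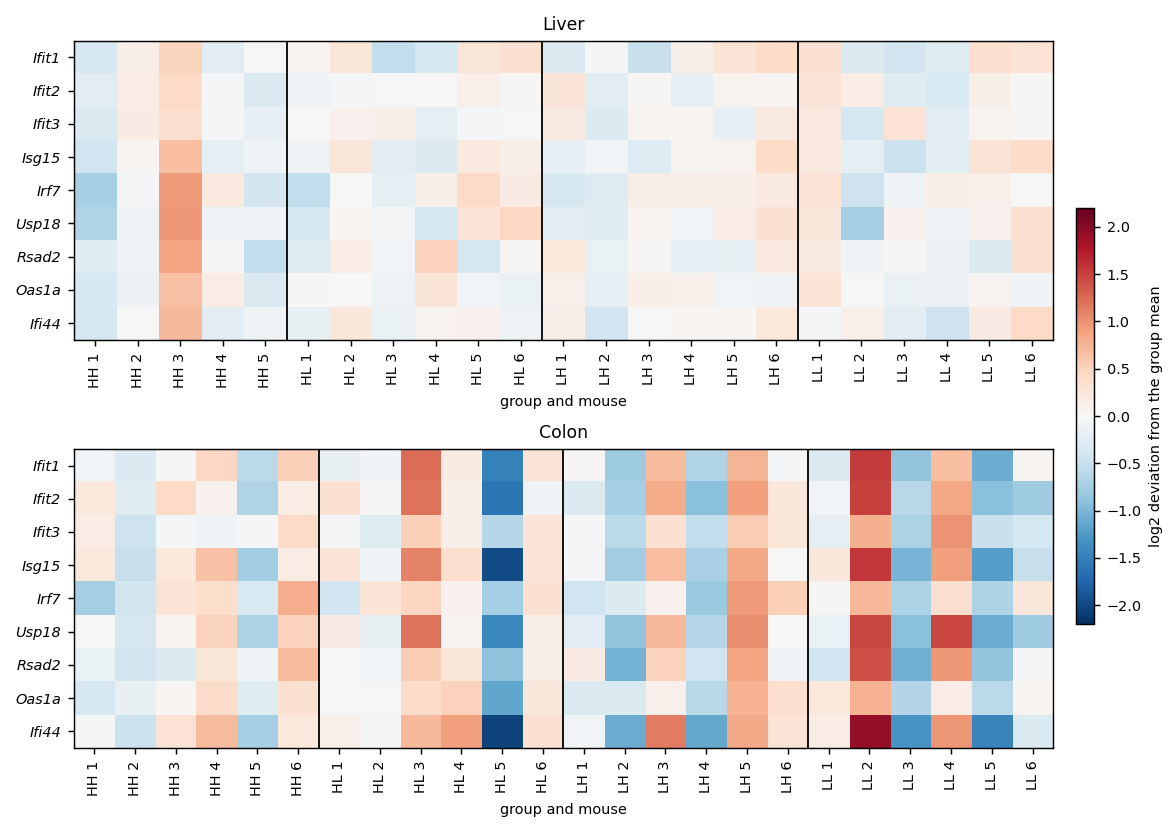
Deviation of each of the 9 genes (rows) from its group mean in each mouse (columns, grouped by diet), for liver (top) and colon (bottom), on the log2 scale. Red is above and blue below the group mean. In the colon whole columns are red (HL 3, LH 5, LL 2, LL 4) or blue (HL 5, LL 3, LL 5), and in the liver HH 3 is the reddest column.

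The 9 genes rose and fell together from mouse to mouse. Over the 36 pairs of genes, the correlation of the deviations from the group mean had a median Pearson r of 0.87 in the 24 colons, with a range of 0.7 to 0.97, and a median Spearman rho of 0.85. In the 23 livers the median r was 0.54, with a range of 0.16 to 0.92, and the median rho was 0.42. The liver value rested in part on 1 mouse, HH 3 (described below), and without it the median r was 0.31. Without the mice over the *Xist* level the median r was 0.86 in the colon and 0.53 in the liver. The closest pair in the colon was *Isg15* with *Ifi44* (r 0.97, rho 0.96), and the closest in the liver was *Ifit1* with *Isg15* (r 0.92, rho 0.93), while *Ifit1* and *Rsad2* had an r of only 0.16 in the liver. All genes of a pair come from the same arrays and share their normalization, and these values are descriptions with no test.

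Single colons carried the pattern across the whole list. LL 2 had the highest mean of the 9 genes, 0.14, with all 9 above the mean of its group, and HL 3, LH 5, LL 4 and LH 3 also had all 9 above it, with means of 0, -0.09, -0.35 and -0.36. HL 5 had the lowest mean, -2.14, with all 9 below its group and 5 of the 9 at the lowest value of any colon. LL 5 and LL 3 followed at -2.1 and -2.03, and LH 2 and LH 4 at -1.65 and -1.64. High and low mice were found in the same groups, and HL, LH and LL each held at least 1 mouse at either end. For HL this rested on HL 5, which is over the *Xist* level, as are LL 5 and LL 3. Without such mice the mean of the 9 genes ran from -0.86 to 0 in HL, from -1.44 to 0.14 in LL and from -1.65 to -0.09 in LH. The 6 colons over the *Xist* level were all below their group mean, with means of the 9 genes from -2.14 to -1.01 (median -1.71), and the other 18 ran from -1.65 to 0.14 (median -0.68). The part of *Xist* or sex in the spread was not tested. Markers of some other cells also moved with the mean of the 9 genes over the 24 colons, less closely, and those of others did not. The r was 0.53 for the 3 plasma cell markers, 0.52 for the 5 T cell markers, 0.36 for the 7 macrophage markers and for the 5 plasmacytoid dendritic cell markers, 0.3 for the 5 B cell markers and -0.05 for the 5 colonocyte markers (rho 0.55, 0.53, 0.42, 0.39, 0.2 and -0.09). The 4 hepatocyte markers, which belong to the other tissue, gave 0.32, near the values of the macrophage and B cell markers. Natural killer cell markers gave 0.16, smooth muscle markers 0.05, neutrophil markers -0.02 and goblet cell markers -0.28. *Siglech*, which defines plasmacytoid dendritic cells, was well above background on 3 of 24 colon arrays and 1 of 24 liver arrays. In whole tissue more cells of a type and more RNA per cell cannot be told apart, and the part of cell composition was not tested.

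In the liver 1 mouse stood apart. The HH mouse with 2 arrays, HH 3, had a mean of -0.84 for the 9 genes, whereas the other 22 livers lay between -1.96 and -1.31, and it held the highest liver value for 8 of the 9. For *Irf7* the HH livers were -1.89, -1.18, -0.23, -0.94 and -1.57 in mice 1 to 5, for *Usp18* -1.24, -0.7, 0.37, -0.68 and -0.67, and for *Oas1a* -2.33, -2.11, -1.35, -1.83 and -2.31. HH 3 is the third value in each series and the highest of its group. Its 2 arrays, on different slides, differed by at most 0.18 for any member probe. The same mouse had the highest liver level of the 7 Kupffer cell and macrophage markers (2.57, others 1.17 to 2.37), of the 3 neutrophil markers (1.37, others -0.7 to 1.01) and of the 34 other type I interferon targets measured (-0.19, others -0.75 to -0.47). It was also highest for the plasmacytoid dendritic cell markers (-0.9, others -1.28 to -0.97) and the interferon receptors (-0.54, others -1.12 to -0.61). From the highest liver down it ranked 12 for B cell, 16 for T cell and 9 for hepatocyte markers. Whether any of these levels accounts for the member values of HH 3 was not tested.

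The diet comparisons ask whether deficiency of the dam, deficiency after weaning, or their combination changed these genes. No member probe was called in either tissue in any of the 6 contrasts, where a call needed more than a 1.5-fold change and, in limma, an FDR (Benjamini-Hochberg) under 0.05. The background was the same, since 0% of all probes were called in each of these 12 comparisons (0 of 41171 in the liver and 0 of 41173 in the colon). The liver result departs from the paper, which at this fold and FDR reported probes for HH *vs.* LH, HH *vs.* HL and HH *vs.* LL. For the colon the paper reported no such gene. The cause of the departure was not tested. At an unadjusted p under 0.05 the liver counts of member probes were 2 of 12 for the dam diet (4.16% of all probes), 0 for the offspring diet (1.37%), 3 for the interaction (11.4%), 0 for HH *vs.* LH (12%), 0 for HH *vs.* HL (4.37%) and 3 for HH *vs.* LL (3.45%). In the colon no member probe reached this level in any contrast, where 2.11% of all probes did for the dam diet, 2.03% for the offspring diet, 1.79% for the interaction, 3.24% for HH *vs.* LH, 1.46% for HH *vs.* HL and 1.72% for HH *vs.* LL.

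For the dam diet in the liver the member probes nearest to a change were the brighter probe of *Ifit2* and the probe of *Ifi44*. *Ifit2* was at -2.46, -2.04, -1.77, -2.25 and -2.52 in the HH livers. It ran from -2.25 to -2.07 in HL (median -2.19), from -2.6 to -2.1 in LH (median -2.34) and from -2.8 to -2.19 in LL (median -2.4). The LH and LL livers thus lay lower on average but overlapped HH and HL. The difference of -0.23 ± 0.09 (SE, 95% interval -0.41 to -0.05) had an adjusted p of 0.999 in limma. The weaker *Ifit2* probe gave -0.05 ± 0.09 (-0.23 to 0.13) and did not follow the brighter one. *Ifi44* was at -2.47, -2.11, -1.39, -2.33 and -2.2 in HH, with medians of -2.31 in HL, -2.4 in LH and -2.46 in LL, and its difference of -0.28 ± 0.11 (-0.51 to -0.04) also had an adjusted p of 0.999. Without HH 3, whose values are the highest of both genes, the differences were -0.17 for *Ifit2* and -0.19 for *Ifi44*. Markers of several cell types lay lower in the same contrast, those of myeloid cells among them. The mean of the 3 neutrophil markers ran from -0.37 to 1.37 (median 0.62) in the 11 livers of H dams and from -0.7 to 0.61 (median -0.14) in the 12 of L dams, and all 3 markers were lower at an unadjusted p under 0.05 with none called. The mean of the 7 Kupffer cell and macrophage markers ran from 1.17 to 2.57 (median 1.92) and from 1.18 to 2.31 (median 1.7), and 0 of the 7 had a positive difference. Without HH 3 the medians in the livers of H dams were 0.52 and 1.9. The difference was also positive for 0 of 5 plasmacytoid dendritic cell, 0 of 3 plasma cell and 0 of 4 smooth muscle markers. It was positive for 2 of 5 B cell, 2 of 5 T cell and 4 of 4 hepatocyte markers. The part of any of these cells in the member values was not tested. Of the 12 member probes 11 had a negative dam difference in the liver, with a median of -0.05 against 0 for all probes. These probes move together and include several of *Rsad2* and *Ifit2*, so 11 of 12 is not a count of independent observations. Of all 41171 probes, 1109 were lower and 603 higher at an unadjusted p under 0.05 in limma.

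For the interaction in the liver, which asks whether the effect of the offspring diet depended on that of the dam, the lowest p belonged to *Usp18*, *Ifit3* and *Ifit1*. *Usp18* had medians of -0.68 in HH, -0.42 in HL, -0.21 in LH and -0.65 in LL, so that the groups deficient in 1 period lay above those deficient in neither or in both. Its interaction was -0.69 ± 0.31 (-1.33 to -0.05) with an adjusted p of 0.409, that of *Ifit1* was -0.59 ± 0.28 (-1.17 to -0.01) with 0.435, and that of *Ifit3* was -0.38 ± 0.18 (-0.75 to -0.01) with 0.433, all from limma. The sizes depended on HH 3. Without that mouse they were -0.93 for *Usp18*, -0.71 for *Ifit1* and -0.47 for *Ifit3*, with adjusted p of 0.213, 0.276 and 0.251 in limma. The groups overlapped for each of these genes. *Oas1a* and *Ifi44* had interactions of the other sign, 0.2 and 0.12, both with intervals that include 0.

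The LL group had the lowest mean of the 4 for all 9 genes in the liver and for all 9 in the colon. The mean of the 9 genes was -1.75 ± 0.2 (SD, n = 6) in LL livers, against -1.52 ± 0.41 (n = 5) in HH, -1.51 ± 0.13 in HL and -1.52 ± 0.14 in LH. In the colon it was -1.17 ± 0.9 in LL, -0.93 ± 0.37 in HH, -0.82 ± 0.72 in HL and -0.92 ± 0.65 in LH (n = 6 each). Since the genes move together, 9 of 9 is not a count of independent observations, and the largest single difference for HH *vs.* LL, -0.41 for *Ifi44* in the liver and -0.55 for *Ifi44* in the colon, was not called. The colon order rested on the mice over the *Xist* level, 3 of which belong to LL. Without them LL was lowest for 0 of 9 genes in the colon, with a mean of -0.55 ± 0.81 (n = 3), and lowest for 9 of 9 in the liver, with -1.79 ± 0.2 (n = 5). The liver order rested in part on HH 3. Without that mouse alone the HH mean was -1.69 ± 0.19 (n = 4), and HH in place of LL was lowest for *Ifit3*, *Isg15* and *Usp18*, which left LL lowest for 6 of 9.

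**Figure D3:**
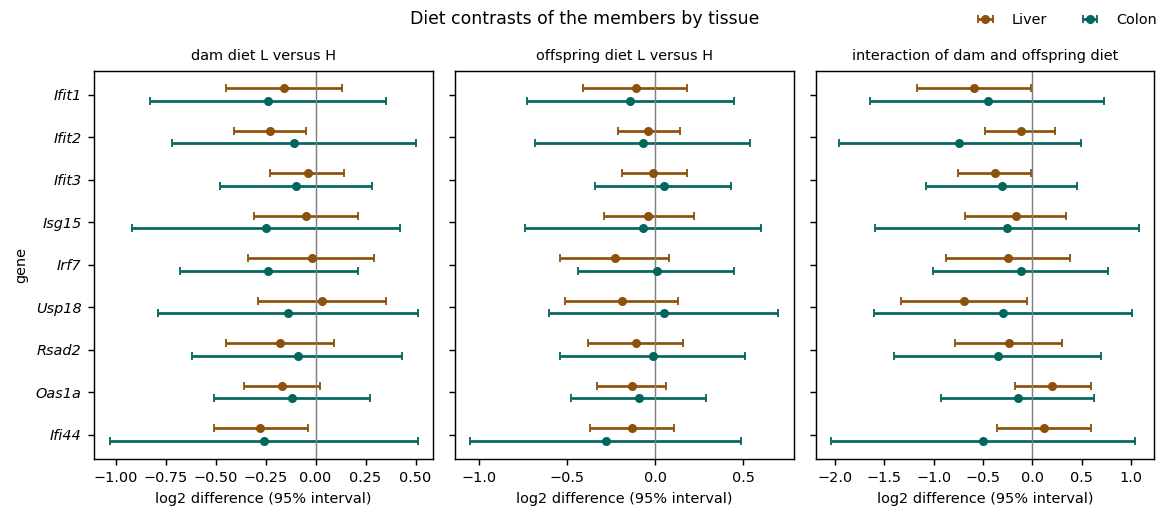
Log2 difference (x axis, with the 95% interval from limma) for the dam diet, the offspring diet and their interaction, for each of the 9 genes (y axis) in liver (brown) and colon (green). Intervals are wider in the colon for every gene, and those that miss 0 are the liver intervals of *Ifit2* and *Ifi44* for the dam diet and of *Ifit1*, *Ifit3* and *Usp18* for the interaction, none of which passed the adjusted threshold.

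The wide spread in the colon sets what could be seen there. The 95% interval of the dam difference reached from -1.03 to 0.51 for *Ifi44* and from -0.51 to 0.27 for *Oas1a*, and that of the interaction reached from -2.04 to 1.04 for *Ifi44*. In the liver the widest half-width for the dam and the offspring diet was 0.32, against 0.77 in the colon. All liver intervals of the dam and the offspring diet lay between -0.54 and 0.35, inside a 1.5-fold change in either direction. Those in the colon ran from -1.05 to 0.7. Liver intervals of the other contrasts reached past a 1.5-fold change. They ran from -1.33 to 0.59 for the interaction, -0.68 to 0.83 for HH *vs.* LH, -0.56 to 0.62 for HH *vs.* HL and -0.75 to 0.3 for HH *vs.* LL. The test of the difference between the tissues called 0 of 12 member probes and 0% of all probes for the dam diet, the offspring diet and the interaction. The intervals of these differences ran from -1.9 to 2.29 at their widest. Within single slides, each of which held 1 array of each group, the dam difference of the mean of the 9 genes was negative on 4 of 6 slides in the liver (-0.48 to 0.27) and on 4 of 6 in the colon (-0.79 to 0.67). In the liver 2 of these slides hold the arrays of HH 3, and on the other 4 slides the difference was negative on 2 (-0.41 to 0.27).

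Between the tissues the members did not move as a block. Of the 12 probes 5 were called lower in liver and 1 higher, where 30.4% of all probes were called, 14.6% higher and 15.7% lower in liver. *Oas1a* was lower in liver by the most, with liver values from -2.48 to -1.35 (median -2.29) and colon values from -1.46 to 0.41 (median -0.34). The difference was -1.81 ± 0.11 (SE), or 3.51-fold, with an adjusted p of 2.21e-19 in limma, and the tissues overlapped only at their edges. *Irf7* followed at -1.66 ± 0.14 (liver -1.89 to -0.23, colon -0.48 to 1.31, adjusted p 9.82e-15) and *Ifit1* at -1.58 ± 0.17 (liver -3.25 to -2.02, colon -2.36 to 0.42, adjusted p 1.85e-11). *Ifi44* was lower in liver by 1.78-fold and *Ifit2* by 1.63-fold, with wide overlap.

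*Usp18*, the brake on the pathway, was the exception and was higher in liver by 0.97 ± 0.19, or 1.96-fold (liver -1.47 to 0.37, colon -2.71 to -0.1, adjusted p 1.01e-05). *Isg15* (-0.08, interval -0.45 to 0.29), *Rsad2* (-0.09, -0.39 to 0.22) and *Ifit3* (0.23, 0.01 to 0.45) were not called. The weaker *Ifit2* probe gave 0.13 ± 0.08 and did not follow the brighter one, and the other *Rsad2* probes gave 0.11 and 0.23. With ratios centred on the median of the array in place of loess, the median of all probes moved from 0.01 to 0.22 and the member probes moved down. *Isg15* (-0.64) and *Rsad2* (-0.7) were then called lower in liver, *Ifit3* turned to -0.34 and *Usp18* (0.39) was no longer called. Without the mice over the *Xist* level 6 member probes were also called, with *Ifi44* at -1.23, *Ifit2* at -0.94 and *Usp18* at 0.66, and *Isg15* (-0.41) and *Rsad2* (-0.37) stayed under the fold threshold. Tissue went with slide and with scan day on all arrays, so these cannot be told apart.

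**Figure D4:**
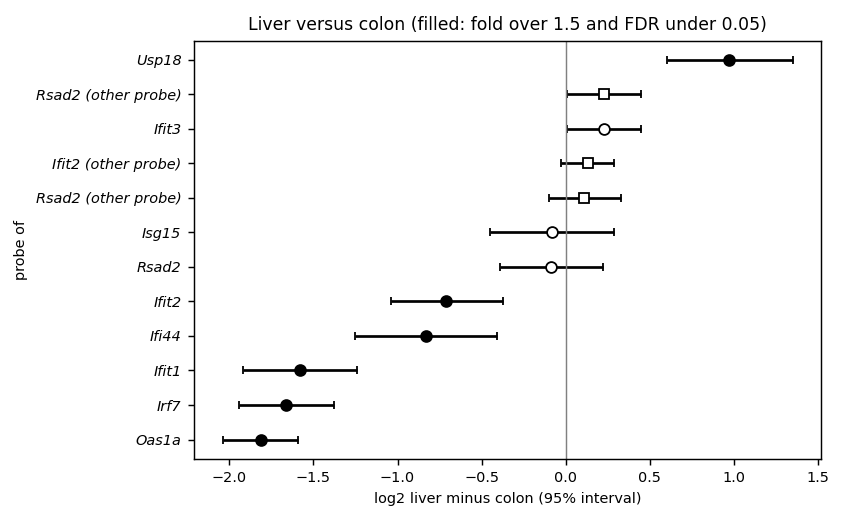
Log2 difference of liver minus colon (x axis, with the 95% interval from limma) for the 12 member probes (y axis). Circles mark the probe that stands for a gene and squares the other probes, and filled symbols mark probes past the fold and FDR threshold, of which *Usp18* lies above 0 and *Oas1a*, *Irf7*, *Ifit1*, *Ifi44* and *Ifit2* below.

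In the rest of the pathway no gene on any of the 6 lists was called in the dam, the offspring or the interaction contrast of either tissue. Among the ligands, 9 of 12 listed genes had a probe and *Ifng*, the type II interferon, had the lowest p for the dam diet in both tissues, with -0.2 ± 0.09 in the liver and 0.19 ± 0.13 in the colon. In the mouse channel *Ifna4*, *Ifnb1*, *Ifne* and *Ifnk* were well above background on 0 of 24 arrays of either tissue. *Ifnl3* passed on 1 of 24 liver arrays and *Ifng* on 15 of 24. For these genes an absent call is not a measured lack of change. The sensors *Cgas* (-0.19 ± 0.06) and *Tlr7* (-0.27 ± 0.11), which detect DNA and RNA, and the targets *Trim30a* (-0.31 ± 0.11), *Cxcl10* (-0.48 ± 0.18) and *Cxcl9* (-0.6 ± 0.24), the latter being chemokines that draw T cells, had the lowest p of their lists for the dam diet in the liver, each with an adjusted p of 0.999 in limma. In the colon the lowest belonged to *Ccl5*, another T cell chemokine, at 0.39 ± 0.18 with an adjusted p of 1.

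Between the tissues 2 of the 9 ligands were called, *Ifna5* (0.91) and *Ifna2* (0.75), both higher in liver. They belong to a family of near-identical genes, so which of them the probes measured is uncertain. Of the 6 receptors 5 were called. *Ifnar2* was higher in liver by 2.29 ± 0.06, while *Ifngr1* (-2.79), *Il10rb* (-2.34), *Ifnlr1* (-2.2) and *Ifngr2* (-2.02) were lower, and *Ifnar1* (0.53) was not called. Of 10 signalling genes *Irf9* was higher in liver (0.71), and *Jak2* (-1.03) and *Socs1* (-0.85) were lower. Of 17 sensors and inducing factors 5 were higher, among them *Tlr9* (2.44) and *Mavs* (1.08), and 5 lower, among them *Irf8* (-1.91) and *Cgas* (-0.97). Of the 34 other type I targets 6 were higher in liver, led by *Bst2* (2.51), *Lgals9* (1.46) and *Ube2l6* (1.35), the enzyme that passes on Isg15, and 11 were lower, led by *Oasl2* (-2.65), *Ifi27l2a* (-1.89) and *Uba7* (-1.56), which activates Isg15. Of 26 type II targets 5 were higher, led by *Iigp1* (3.9), and 10 were lower, led by *Ccl5* (-2.29) and *Psmb10* (-1.71). Each of these calls is read against the 30.4% of all probes called.

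The other interferon targets moved with the 9 genes from mouse to mouse in the colon. Over the 24 colons the mean deviation of the 34 other type I targets had a Pearson r of 0.96 and a Spearman rho of 0.98 with that of the 9 genes, and r was 0.95 without the 2 mice farthest from the median. The r was 0.84 for the 17 sensors and inducing factors, 0.82 for the 26 type II targets and 0.64 for the 10 signalling genes. It was -0.12 for the receptors and 0.46 for the ligands, several of which were not above background. In the liver the r of the other type I targets was 0.85 and fell to 0.62 without the 2 mice farthest from the median, 1 of them HH 3, with a rho of 0.64 over all 23. The genes most like the members, among named genes outside the list that were well above background on at least 50% of the arrays of a tissue, also differed between tissues. In the colon they were *Rtp4* and *Oasl1* (r 0.97 each), *Trim30d* (0.95), *Apol9b* and *Oasl2* (0.94 each), and *Rtp4*, *Oasl1* and *Oasl2* stand on the list of type I targets. In the liver they were *Hacd4* (0.88), *C1qtnf7* (0.86), *Pygb*, *Tm4sf1* and *Evi2a* (0.85 each), none of them on an interferon list, and their r in the colon was between -0.35 and 0.3. The liver ranking includes HH 3, whose mean deviation of the 9 genes was 0.67, where the next highest liver, LL 1, had 0.23. It was not repeated without HH 3, so these genes may be ones that were high in that mouse. An r over 0.8 was reached by 38 of 15305 genes (0.248%) in the colon and by 21 of 13770 (0.153%) in the liver.

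**Figure D5:**
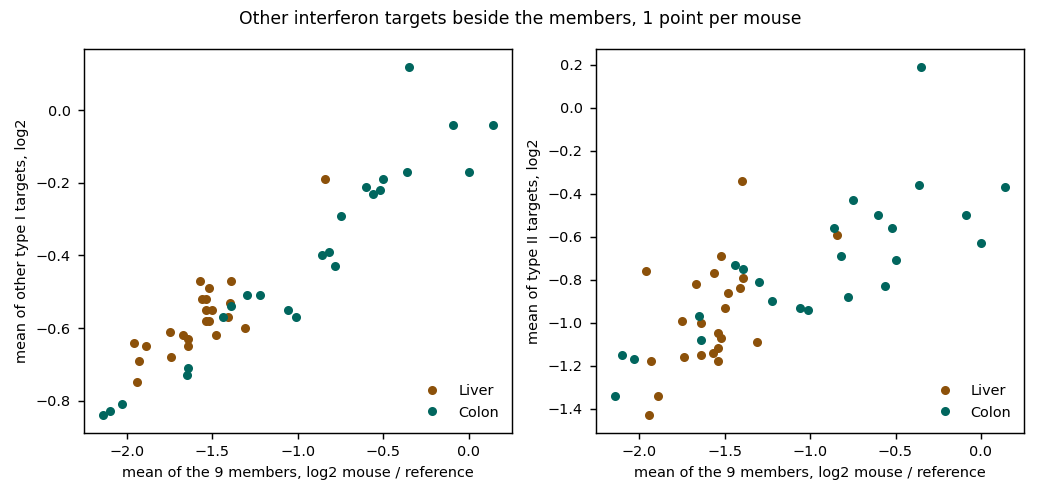
Mean log2 ratio of the 34 other type I targets (left, y axis) and of the 26 type II targets (right, y axis) against the mean of the 9 members (x axis), 1 point per mouse, with liver in brown and colon in green. The colon points run along 1 rising line in the left panel, and in the liver HH 3 lies apart at -0.84 on the x axis.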

How the data were processed

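The authors deposited, per array, raw median intensities of every spot and of the area around it for each dye, from Feature Extraction (10.10.1.1 in the file headers), and also log2 values of reference over mouse, which the submitters' notes credit to limma in R 3.0.2. Here a local background brighter than its spot was replaced by that array's median, since it otherwise compressed some arrays. Background was then corrected with normexp (offset 50), ratios were normalized by global loess, outlier spots were dropped and the spots of a probe averaged. The 2 arrays of 1 HH mouse were averaged. Probes were named through RefSeq accessions, which matched 27050. Each tissue was fitted in limma 3.58.1 (R 4.3.3) as 4 groups, using probes with values in at least 2 mice per group, and both tissues as 8 groups. P-values were adjusted over all probes. The model was checked on simulated data.

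The members, lists and named genes were chosen with earlier results of these data known. The genes named are the members with every probe, from each interferon list the genes called (the largest are named) or otherwise those with the lowest p for the dam diet, and the 5 most like the members per tissue. Mice are numbered by slide, so equal numbers within a tissue share a slide by the labels. The deviations of arrays that share a slide had a mean correlation over 0.1 on 4 of 6 liver slides (0.0637 to 0.312, single pairs down to -0.323) and on 6 of 6 colon slides (0.172 to 0.589). Beyond these labels nothing says how the samples were handled, and p-values measure the spread between mice. The number of arrays limits the precision. Alternatives covered background, normalization, the channel used, slide and array position, the filter on dim probes, the mice over the *Xist* level and each mouse left out. The following genes of the interferon lists were not on the arrays by these names: *Ifna1*, *Ifna11*, *Ifnl2*, *Mx1*, *Mx2*, *Oas1b*, *Dtx3l*, *Ifi203* and *H2-Eb1*. Nor were *Cps1* of the hepatocyte markers, *Cd68* of the Kupffer cell and macrophage markers and *Ly6g* of the neutrophil markers.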

Additional observations from a re-analysis of the deposited data

Results flagged for a closer look

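Of 80 sets of values looked at (9 genes and their mean in 8 groups), 3 held 1 mouse far from the others of its group by Dixon's ratio of gap to range, 3.75%, where chance gives about 1 in 20. Both colon cases were HL 5, with *Ifi44* at -3.42 (nearest mouse -1.43) and *Oas1a* at -1.46 (nearest -0.34). This is 1 of the colons over the *Xist* level. The liver case was HL 4, with *Oas1a* at -1.93 (nearest -2.2).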

How the results depend on the processing

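No member probe was called for a diet contrast in either tissue under any of the alternatives run, nor with any single mouse left out (0 to 0 in each contrast). With slide as a fixed block (the replicate block) the count was also 0 for every diet contrast, with interactions of -0.62 for *Usp18*, -0.52 for *Ifit1* and -0.36 for *Ifit3* in the liver, and with slide as a random block 6 member probes were called between the tissues, so the block changed no call. The count between the tissues was 5 to 7 over the alternatives and 6 with any mouse left out. Single genes moved in that comparison. With the local background kept as deposited *Ifit2* fell short of the fold threshold (-0.55). With median centring *Ifit3* reversed (-0.34), *Isg15* (-0.64) and *Rsad2* (-0.7) were called and *Usp18* (0.39) was not. In the Cy3 channel alone *Isg15* (0.15) and *Rsad2* (0.05) reversed. The cause was not tested.

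The settings for the spread and for the pair correlations were chosen after seeing the data. The median ratio of colon over liver SD for the 9 genes was 1.82 to 2.61 over the settings and 2 to 2.69 with any mouse left out. The median pair correlation was 0.85 to 0.89 in the colon and 0.31 to 0.59 in the liver with any mouse left out, and the processed intensities gave 0.92 in the colon. The liver value of 0.31 was that without HH 3. Signal over background limits the weaker *Ifit2* probe most, with a median of 2.27 times background in the liver.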
